A study of Sus scrofa with 5 samples.

Results

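The pig miRNAs ssc-miR-139-5p, ssc-miR-574 and ssc-miR-128 (prefix dropped below) are 3 mature miRNAs that were chosen by name because earlier results of these data placed them higher in serum than in plasma, so their serum and plasma values are a description and carry no test. They are 3 of the 411 mature miRNA names in the deposited tables, and all 3 were listed above 0 in serum. The tables hold small RNA reads from exosomes, the small vesicles that cells release into body fluids. The vesicles came from serum, plasma, semen, urine or bile of pigs of the Rongchang breed at postnatal day 180, were isolated with a commercial reagent, and gave 1 library for each fluid. The labels name no treatment or mutation. They do not say how many pigs stand behind a library or whether 1 pig gave more than 1 fluid.

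A miRNA is a short RNA that guides Argonaute proteins to messenger RNAs with matching sites, which lowers their translation or stability. Each is cut from a hairpin precursor whose arms, called 5p and 3p, can both give a mature miRNA. miR-139-5p is known in human tumours as a miRNA whose loss accompanies growth and migration, and its hairpin gene lies within the span of PDE2A, which encodes a phosphodiesterase that degrades cyclic nucleotides. The hairpin gene of miR-574 lies within the span of FAM114A1, and the name used in the tables gives no arm. miR-128 is known from human and mouse as a miRNA abundant in neurons, where it limits excitability. It is made from a pair of hairpin genes, one within the span of R3HDM1 and the other within that of ARPP21, a gene of the brain striatum. Reads of the mature miR-128 cannot be assigned to either gene. These positions are those of the RefSeq annotation, of another assembly than the one the authors used, so they are given by name only.

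The miRNA counts summed to 473168 for serum, 1153755 for plasma, 2284926 for semen, 26522 for urine and 1673239 for bile. Every listed count was 0 or at least 10, so a value listed at 0 stands for 0 to 9 reads. Levels below are CPM, which sets the miRNA counts of every library to a sum of 1000000, with exact 95% intervals that cover counting error only. Other scalings were tried because 3 miRNAs, miR-378, miR-320 and miR-423-5p, take most plasma counts and so lower every other plasma share. They were totals without these 3, TMM library sizes (edgeR), DESeq2 size factors and counts of miR-191, a miRNA often used as a normalizer. Totals without the most abundant miRNA of each library and the authors' RPM, reads scaled to a larger library total, were also tried. TMM and DESeq2 scale on many miRNAs at once. DESeq2 used the 67 names above 0 in all 5 libraries, which leaves out miR-139-5p, miR-574 and miR-128. A single library per fluid leaves the differences between fluids without a replicate check, so they carry no p-values. A level is a share of the miRNA counts and not an absolute amount. A lower level may mean fewer vesicles that carry a miRNA, less of it per vesicle or more of other miRNAs. These cannot be told apart here. In the label check, miR-192, an abundant miRNA of liver and intestine, stood at 137441 CPM in bile, against 13050 in serum, 13988 in urine, 3795 in plasma and 118 in semen.

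In serum, miR-128 was the most abundant of the 3 with 1186 counts, followed by miR-139-5p with 818 and miR-574 with 541. They stood at places 43, 54 and 61 among the 180 miRNAs listed above 0 there, so none was among the leading miRNAs of serum. Their levels in serum were 2507 CPM for miR-128 (2366 to 2653), 1729 CPM for miR-139-5p (1612 to 1851) and 1143 CPM for miR-574 (1049 to 1244). As shares of the serum miRNA counts these are 0.251%, 0.173% and 0.114%.

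miR-139-5p was listed in serum, plasma and bile. It had 818 counts in serum, against 15 in plasma, a listed 0 in semen, a listed 0 in urine and 185 in bile. Beside the 1729 CPM of serum, bile held 111 CPM (95.2 to 128) and plasma 13.0 CPM (7.28 to 21.4). Serum stood above both under every scaling tried. The bile level was 8.50 times that of plasma by CPM (5.02 to 15.5). It was 8.42 times on the authors' RPM and 7.34 times with totals without the most abundant miRNA. The ratio was 1.64 with TMM (0.969 to 2.99), 1.28 with DESeq2 size factors and 1.26 against miR-191. Without miR-378, miR-320 and miR-423-5p it was 1.37, and the intervals of these lower ratios include 1. Bile thus stood above plasma under every scaling, but whether beyond counting error depends on the scaling. The semen library was the deepest of the 5, and at the share seen in bile it would have held 253 counts of miR-139-5p, where the table lists 0. At the plasma share it would have held 29.7. Over the 6 other scalings these expected counts stayed above 10, the lowest being 175.5 from bile and 22.5 from plasma. The urine library held too few miRNA counts to separate such levels. At the serum share urine would have held 45.9 counts, and at the bile share 2.93, which the table would have shown as 0.

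miR-574 was listed in serum, semen and bile. It had 541 counts in serum, against a listed 0 in plasma, 119 in semen, a listed 0 in urine and 102 in bile. The levels were 1143 CPM in serum, 52.1 CPM in semen (43.1 to 62.3) and 61.0 CPM in bile (49.7 to 74.0). Bile and semen did not differ beyond counting error by CPM, at a ratio of 1.17 (0.890 to 1.54), and their order turned round on the authors' RPM, with 9.66 in bile and 11.0 in semen. Against miR-191 bile was 2.55 times higher (1.93 to 3.34). At the bile share plasma would have held 70.3 counts and at the semen share 60.1, while its table lists 0. These expected counts were 13.6 and 10.6 with TMM, 10.6 and 11.0 with DESeq2 size factors, 11.4 and 9.70 without miR-378, miR-320 and miR-423-5p, and 10.4 and 4.10 against miR-191, near or under the 10 counts that the tables require. Whether plasma lay below bile and semen is therefore not resolved, whereas the serum level would have given 69.2 counts or more in plasma under every scaling. In urine the serum share would have given 30.3 counts and the bile share 1.62, so its absence from that table bears on the serum level and not on the lower ones.

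miR-128 was spread more evenly. It had 1186 counts in serum, against 245 in plasma, 1004 in semen, a listed 0 in urine and 494 in bile, and was thus the only one of the 3 listed in 4 fluids. The levels were 2507 CPM in serum, 212 CPM in plasma (187 to 241), 439 CPM in semen (413 to 467) and 295 CPM in bile (270 to 322). Semen stood 1.49 times above bile (1.33 to 1.66), and bile 1.39 times above plasma (1.19 to 1.63), which orders the CPM as serum, semen, bile and plasma. The authors' RPM gave the same order, with 112 in serum, 92.9 in semen, 46.8 in bile and 34.0 in plasma. The place of plasma turned with other scalings. Plasma stood above semen by 2.73 times and above bile by 3.73 times with TMM, by 2.64 and 4.77 times with DESeq2 size factors, by 2.99 and 4.46 times without miR-378, miR-320 and miR-423-5p, and by 7.08 and 4.85 times against miR-191, where bile also exceeded semen by 1.46 times. At the serum share urine would have held 66.5 counts, and at the semen share 11.7, just over the 10 counts that the tables require.

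**Figure D1:**
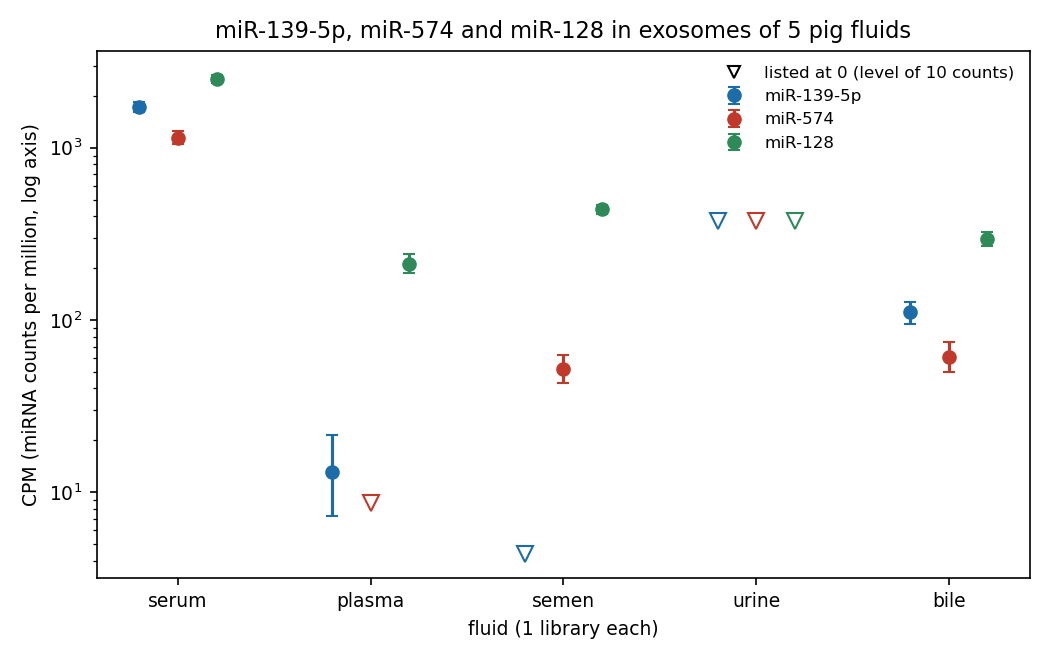
CPM of the 3 miRNAs in each fluid on a log axis, 1 library per fluid, with exact 95% counting intervals as bars; open triangles mark a listed 0 at the level that 10 counts would have in that library. All 3 stand between 1143 and 2507 CPM in serum, and the triangles of urine lie at 377 CPM because that library held few miRNA counts.

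The ratio of serum to plasma was 133 for miR-139-5p (80.1 to 239) and 11.8 for miR-128 (10.3 to 13.6). For miR-574 it was at least 132, with plasma taken at 10 counts (lower end of the counting interval 71.2). All 3 ratios passed 2-fold, but the choice of members fixed that direction, and 73.1% of the 119 miRNAs with at least 100 counts in serum or plasma passed the same limit. The median ratio of the 109 of them listed above 0 in both was 6.84, or 2.77 on the log2 scale, so most miRNAs took a larger share of the serum counts than of the plasma counts. Relative to that median, miR-139-5p was 19.4 times higher in serum, miR-574 at least 19.3 times and miR-128 1.72 times. Of the 119 miRNAs, 36.1% lay 2-fold or more above the median; miR-139-5p and miR-574 were among them and miR-128 was not. miR-139-5p held place 4 and miR-574 place 5 in the order of the ratio, while miR-128 held place 47. The place of miR-574 rests on the 10 counts taken for its listed 0; with 3 counts it held place 1 and miR-139-5p place 6.

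The neighbours in that order show how closely the values lie. Just above miR-139-5p stood miR-182, a miRNA of sensory organs and epithelia, with a ratio of 135 from 3256 counts in serum and 59 in plasma, and miR-30c-5p, also with 135 from 777 and 14. Just below miR-574 came let-7f with 125 and miR-23b with 116. With 15 counts in plasma for miR-139-5p and a bound for miR-574, the order among the leading miRNAs is not resolved. Around miR-128 the ratios were 12.9 for miR-181a, 12.8 for miR-148a-3p, 11.7 for miR-142-5p and 11.0 for miR-215.

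**Figure D2:**
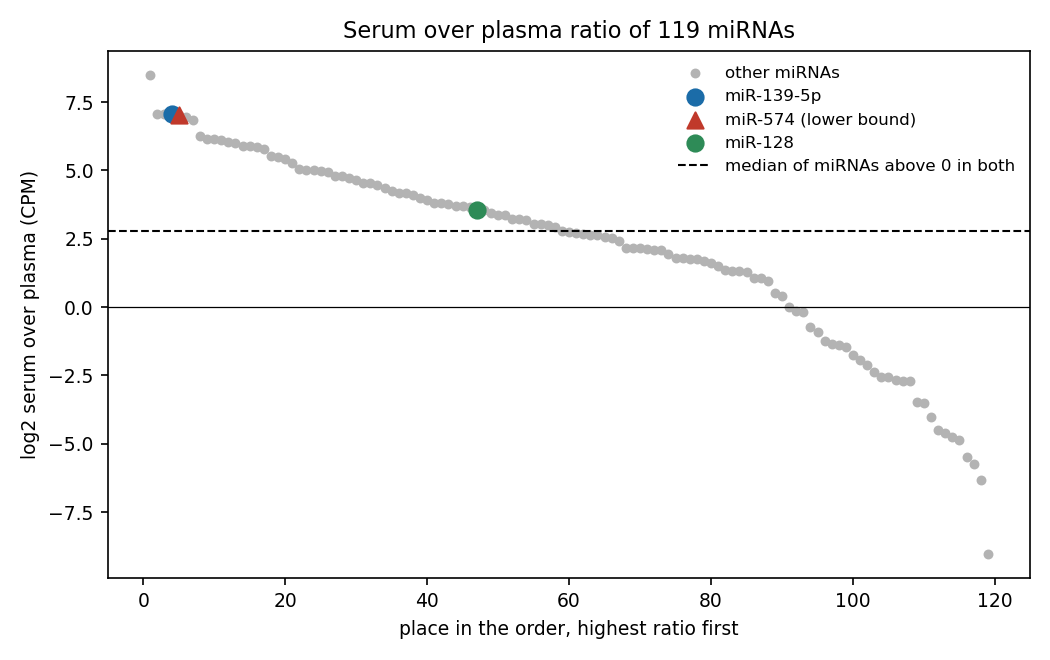
Log2 ratio of serum to plasma CPM for the 119 miRNAs with at least 100 counts in either library, ordered from the highest; the dashed line is the median, 2.77, of the 109 listed above 0 in both. miR-139-5p and the lower bound of miR-574 lie at places 4 and 5, and miR-128 lies at place 47, near the line.

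How the libraries were scaled set the size of these ratios, and for miR-128 the direction. With miR-378, miR-320 and miR-423-5p left out of every total, the ratio of serum to plasma was 22.3 for miR-139-5p, at least 22.1 for miR-574 and 1.98 for miR-128. On the authors' RPM the values were 37.1, at least 36.8 and 3.29. With TMM library sizes they were 13.5, at least 13.4 and 1.19, and with DESeq2 size factors 13.1, at least 12.9 and 1.16. Scaled to miR-191 they were 6.98, at least 6.92 and 0.619, so that miR-128 was lower in serum than in plasma. By CPM miR-191 itself was 19.1 times higher in serum than in plasma (17.2 to 21.2), which is 2.78 times the median ratio. Thus miR-139-5p and miR-574 were higher in serum than in plasma under all 6 other scalings, by 6.92-fold or more in each, and miR-128 under 5 of the 6, passing 2-fold in 2. The median of the 109 miRNAs moved by the same factor in each case, to 0.93 on the log2 scale with the authors' RPM, -0.53 with TMM and -1.48 with miR-191. Since a scaling multiplies every ratio alike, the distances of the 3 miRNAs from the median could not change and are as given above.

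**Figure D3:**
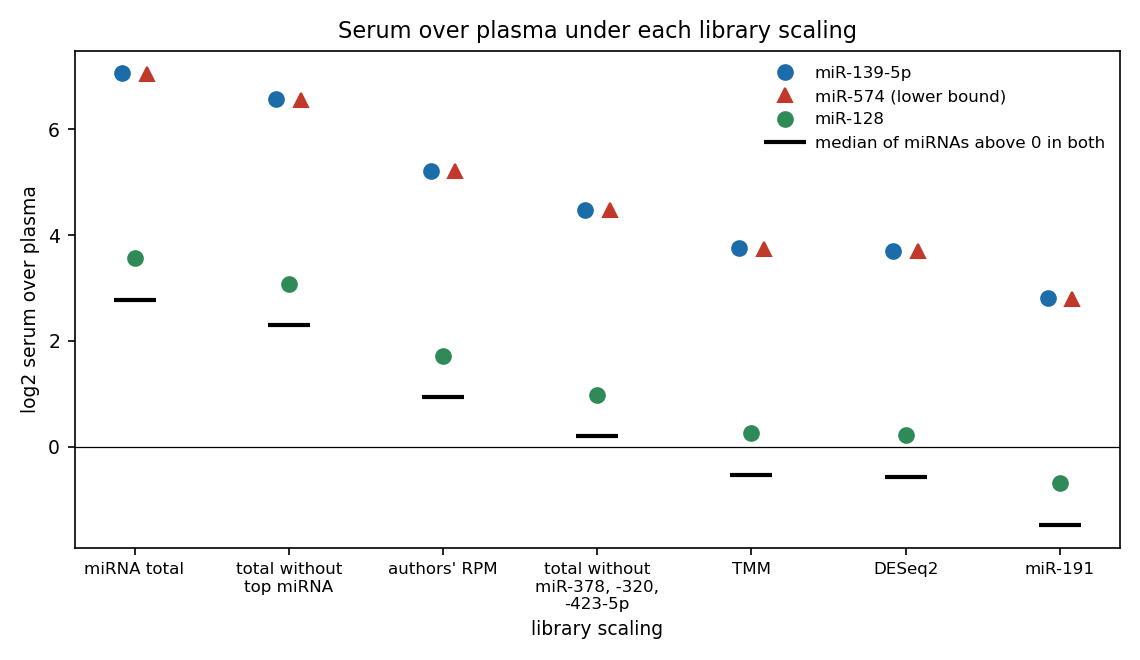
Log2 ratio of serum to plasma under 7 library scalings for the 3 miRNAs and for the median of the 109 miRNAs listed above 0 in both libraries; triangles are lower bounds. miR-139-5p and miR-574 stay above 0 throughout, and miR-128 comes to 0.26 with TMM, 0.21 with DESeq2 and -0.69 with miR-191.

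The comparisons with semen, urine and bile use the same serum counts by which the members were chosen, so a high serum value raises these ratios too, and they are no independent support. Serum over semen was at least 395 for miR-139-5p (lower end 214), 22.0 for miR-574 (18.0 to 27.0) and 5.70 for miR-128 (5.24 to 6.21). All 3 passed 2-fold, as did 51.1% of the 141 miRNAs with at least 100 counts in serum or semen. Serum over bile was 15.6 for miR-139-5p (13.3 to 18.4), 18.8 for miR-574 (15.2 to 23.4) and 8.49 for miR-128 (7.64 to 9.45), where 53.6% of 138 miRNAs passed 2-fold. The medians for these pairs were 2.36 for semen and 2.51 for bile. Relative to them miR-128 was 2.42 times higher in serum than in semen and 3.38 times higher than in bile, both over the 2-fold that it missed against plasma. Of all miRNAs in these pairs, 39% and 37.7% passed 2-fold relative to the median.

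Serum over urine could be given as a lower bound for each, since urine lists all 3 at 0. It was at least 4.59 for miR-139-5p (lower end 2.48), at least 3.03 for miR-574 (lower end 1.64, under 2-fold) and at least 6.65 for miR-128 (lower end 3.60). In that pair 38.1% of 105 miRNAs passed 2-fold, and 27.6% did so relative to the median ratio of 1.33. Relative to that median the bounds were 3.44 for miR-139-5p, 2.28 for miR-574 and 4.99 for miR-128. The bounds are set by the few miRNA counts of urine, so their order follows the serum counts and says nothing of the levels in urine.

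On the authors' RPM serum stood closer to semen and bile. There serum over semen was 1.20 for miR-128 (1.11 to 1.31) and 4.64 for miR-574, and serum over bile was 2.39 for miR-128, 5.28 for miR-574 and 4.41 for miR-139-5p. The listed miRNAs made up 4.47% of that total in serum, against 21.2% in semen, 15.9% in bile, 16.0% in plasma and 0.246% in urine. Across the 6 other scalings serum stayed above semen, urine and bile for all 3 miRNAs, with urine at its bound. The lowest urine bound was 1.63, for miR-574 against miR-191, and its counting error was not worked out.

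Ratios between the 3 within a library do not depend on the scaling. In serum there were 1.51 counts of miR-139-5p for each of miR-574 (1.35 to 1.69), and in bile 1.81 (1.42 to 2.33), and these intervals overlap. In semen the proportion was turned round, with at least 11.9 counts of miR-574 for each of miR-139-5p (lower end 6.25). miR-128 exceeded miR-139-5p by 1.45 times in serum (1.33 to 1.59), by 16.3 times in plasma (9.71 to 29.6), by at least 100.4 times in semen (lower end 54.4) and by 2.67 times in bile (2.25 to 3.18). It exceeded miR-574 by 2.19 times in serum (1.98 to 2.43), by at least 24.5 times in plasma (lower end 13.1), by 8.44 times in semen (6.97 to 10.3) and by 4.84 times in bile (3.91 to 6.05). Serum was thus the library in which the 3 were most nearly level, among the 4 where any was listed.

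The other arm of the miR-139 hairpin was also listed. miR-139-3p had 48 counts in serum, against 40 in plasma, a listed 0 in semen, a listed 0 in urine and 18 in bile. In serum the 5p arm exceeded the 3p arm by 17.0 times (12.7 to 23.3) and in bile by 10.3 times (6.33 to 17.7). In plasma the 3p arm led, with 2.67 counts for each of the 5p arm (1.44 to 5.20). The 5p to 3p ratio was therefore 45.4 times higher in serum than in plasma (22.5 to 94.1), while serum and bile differed by 1.66 times (0.886 to 2.98), within counting error. Since the arms come from 1 library, no scaling enters these ratios. The comparison was added after these values were seen. It equals the serum over plasma ratio of the 5p arm, by which that arm was chosen, divided by that of the 3p arm, so the choice largely fixes its direction.

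miR-139-3p did not share the position of the 5p arm between the blood fluids. Its level was 101 CPM in serum (74.8 to 134) and 34.7 CPM in plasma (24.8 to 47.2), a ratio of 2.93 (1.88 to 4.57), which is 0.428 times the median ratio. On the authors' RPM the ratio was 0.816 (0.525 to 1.27), which does not differ from 1 beyond counting error. The factor of 0.428 relative to the median holds under any scaling. That median was 0.693 with TMM, 0.672 with DESeq2 size factors and 0.359 against miR-191. It was 1.15 without miR-378, miR-320 and miR-423-5p. Under each of these scalings miR-139-3p was therefore higher in plasma than in serum, with counting intervals not worked out. The direction of its difference between serum and plasma thus depends on the scaling. Both arms were listed at 0 in semen.

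Large arm differences between serum and plasma were common. Of 78 hairpins with both arms named, 17 had both arms above 0 in serum and plasma, and in 11 of them, 64.7%, the 5p to 3p ratio differed by 2-fold or more. The leading arm differed in 5, which were miR-139, miR-142, miR-339, miR-425 and miR-671. For miR-671 the serum counts were 10 for 5p and 11 for 3p, so no leading arm is resolved there. The miR-339 change rests on 10 counts of 5p in plasma and 11 of 3p in serum. A further name, miR-339 without an arm, had 420 counts in serum and 1694 in plasma. On the log2 scale the serum minus plasma difference ranged over these 17 from -6.38 for miR-148a to 5.73 for miR-339, with a median of -0.23. miR-139, at 5.51, had the fourth largest by size, after miR-148a, miR-671 and miR-339. Between serum and bile 60% of 20 hairpins differed by 2-fold, and miR-139, at 0.73, was not one of them. These hairpins were named after their values were seen.

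**Figure D4:**
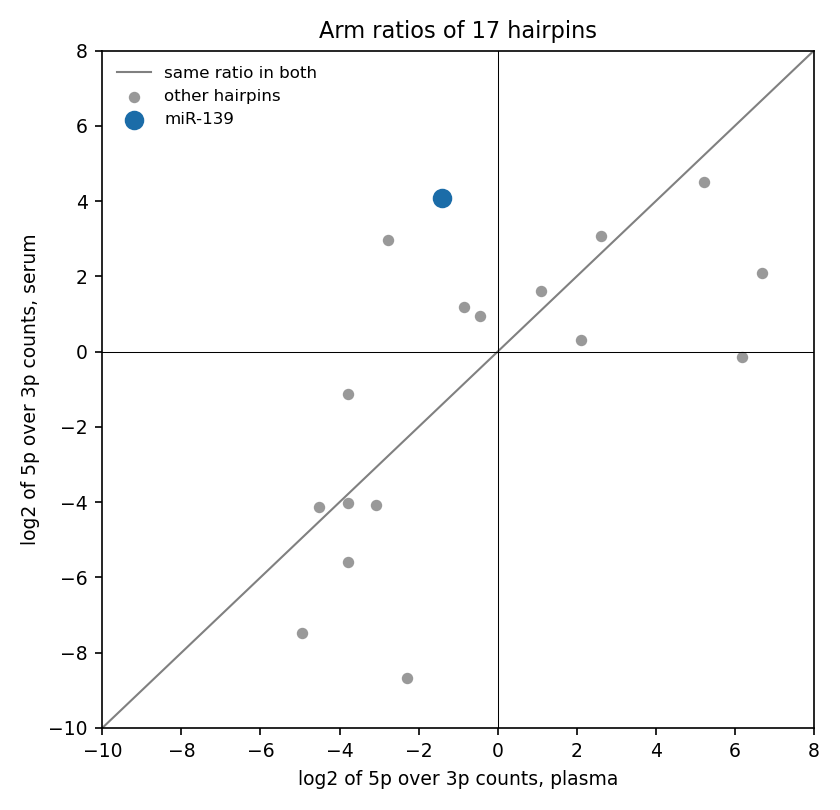
Log2 of the 5p over the 3p count in serum (vertical axis) against plasma (horizontal axis) for the 17 hairpins with both arms above 0 in both libraries; the line marks equal ratios. miR-139 lies at 4.09 in serum and -1.42 in plasma, above the line.

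The miRNAs with profiles most like each of the 3 were sought among the 102 others with at least 100 serum counts, by the root mean square difference of centred log2 CPM over the 5 fluids, which share the same libraries and their depths. For miR-139-5p these were miR-181b at 0.71, miR-150, a lymphocyte miRNA, at 0.72, and miR-181a at 1.21. miR-150 had 1008 counts in serum, against 37 in plasma, a listed 0 in semen and urine, and 96 in bile. For miR-574 they were let-7d-3p at 0.68, miR-16 at 0.86 and miR-361-5p at 1.08. let-7d-3p had 293 counts in serum, against 22 in plasma, 90 in semen, a listed 0 in urine and 84 in bile. For miR-128 they were miR-126-3p, an endothelial miRNA, at 0.45, miR-148b-3p at 0.63 and miR-425-5p at 0.66. miR-126-3p had 2103 counts in serum, against 221 in plasma, 837 in semen, 817 in bile and 14 in urine.

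The 3 were not close neighbours of each other by this measure. miR-574 was place 11 of 102 for miR-139-5p, at 1.66, and miR-128 was place 43, at 2.48. Seen from miR-128, miR-574 was place 41, at 1.59, and miR-139-5p place 76.

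Of the brain-linked list to which miR-128 belongs, 8 of 19 names were above 0 in any fluid, and 11, among them miR-124a, miR-137 and miR-138, were listed at 0 in all 5 libraries. Beside miR-128 and miR-129b, those above 0 in at least 1 fluid were miR-9, miR-9-2, miR-132, miR-218, miR-218b and miR-219a. By CPM miR-9 was highest in urine at 1433, from 38 counts, against 46.4 in semen. miR-9-2 was also highest in urine at 528 CPM, from 14 counts, against 54.6 in plasma and 48.6 in semen. miR-132 stood at 30.2 CPM in semen and 27.5 in serum. Among the fluids that listed them, miR-218 was highest in bile at 240 CPM, miR-218b in bile at 26.9 and miR-219a in plasma at 42.5. Apart from miR-128 and miR-129b, these names were chosen after their values were seen. miR-128 made up nearly all of the list's serum counts, 1186 of 1285. The second most abundant in serum, miR-129b, went the other way, with 41 counts in serum and 1616 in plasma. Of the pair with at least 100 counts in serum or plasma, 1 was 2-fold higher and 1 was 2-fold lower in serum, a direction that 20.2% of the 119 miRNAs took. The list took 0.272% of serum, 0.179% of plasma, 0.0565% of semen, 0.196% of urine and 0.0638% of bile counts.

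As shares of the miRNA counts, blood cell miRNAs were also higher in serum than in plasma. The erythrocyte list took 14.2% of the counts in serum and 0.863% in plasma, the leukocyte list 2.15% and 0.361%, and the platelet list 2.87% and 0.240%. Among members with at least 100 counts in serum or plasma, 4 of 5 erythrocyte, 6 of 6 leukocyte and 4 of 4 platelet miRNAs were 2-fold higher in serum, against the 73.1% of all miRNAs, and the median log2 ratios were 4.36, 3.29 and 4.39, against 2.77. The directions of the summed lists depended on the scaling. Serum over plasma was 16.4 for the erythrocyte list, 5.94 for the leukocyte list and 11.9 for the platelet list by CPM, 1.66, 0.601 and 1.21 with TMM, 1.61, 0.583 and 1.17 with DESeq2 size factors, and 2.75, 0.995 and 1.997 without miR-378, miR-320 and miR-423-5p. Against miR-191, itself on the platelet list, all 3 sums were lower in serum, at 0.861, 0.312 and 0.625. Within the leukocyte list the CPM ratio ran from 3.38 for miR-146a-5p to 362 for miR-342. miR-146a-5p held 3836 of the 4169 leukocyte counts in plasma. The most abundant in serum were miR-451 and miR-92a of the erythrocyte list, miR-146a-5p and miR-342 of the leukocyte list, and miR-24-3p and miR-191 of the platelet list. In semen the lists took 0.173%, 0.00643% and 0.596%, in urine 0.660%, 0.0566% and 0.588%, and in bile 0.785%, 0.148% and 0.441%. miR-451 was listed at 0 in semen, and miR-223 and miR-197, names on these lists, were not analysed here. The part of these cells in the levels of miR-139-5p, miR-574 and miR-128 was not tested. The liver list, led in serum by miR-148a-3p and miR-192, took 53.0% in semen and 51.7% in bile. It took 19.8% in serum, 18.2% in urine and 3.11% in plasma. In semen miR-148a-3p alone made up 52.8% of the counts, whereas miR-122, of the same list, stood at 14.0 CPM there and 54673 in bile. Of the list's 4 members with at least 100 counts in serum or plasma, miR-148a-3p and miR-192 were 2-fold higher in serum. The other 2, miR-122 and miR-148a-5p, were 2-fold lower.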

How the data were processed

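The authors deposited, for each of the 5 libraries, a table of 411 mature miRNA names with a read count and a normalized value. The submitters' processing notes name bcl2fastq 2.17 and the build Sscrofa10.2. For the aligner, the annotation and the treatment of reads with several matches nothing is given in the sources used here, so closely related miRNAs can share counts. The normalized column the authors deposited holds RPM: counts divided by it gave 1 constant per library, from 7207788 in plasma to 10801967 in semen, within 0.00461%. The sources used here do not say which reads enter that total. Small RNA was size-selected on a gel, per the labels' protocols, and no molecular identifiers are named.

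From the counts, shares with Clopper-Pearson 95% intervals and CPM ratios with exact conditional binomial 95% intervals were computed with Python 3.11.15 and scipy 1.17.1. A listed 0 was raised to 10 counts, the lowest listed, in ratios and profiles. Comparisons over all miRNAs required at least 100 counts in either library, with 2-fold as the limit. The interval code was tested on simulated data. Alternatives were edgeR 4.0.16 TMM, DESeq2 1.42.0 size factors, other totals, the authors' RPM, miR-191 as the unit, a floor of 3 counts, thinning in 100 draws, and other minimum counts and fold limits. The scalings of ratios among plasma, semen and bile, of list sums and of expected counts were added after the data were seen.

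The miRNAs, lists and tests were chosen with earlier results of these data known. Named miRNAs are the 3 members, their other arms, the 3 most similar profiles of each, the 2 neighbours on each side in the serum to plasma order, and the 2 most abundant in serum of each list; miR-192 in the label check is named under the last. Other names were chosen after their values were seen. They were the remaining brain-list members, miR-122 and miR-148a-5p of the liver list, the hairpins of the arm comparison and the 3 leading plasma miRNAs. Also added were miR-223 and miR-197, list names with no value here. A planned group of miRNAs with shared seed sequences was not analysed here, since no sequences were used. No comparison has a test, because each fluid has 1 library.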

Additional observations from a re-analysis of the deposited data

How the results depend on the processing

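The ratio of serum to plasma moved beyond its counting interval under most other settings. For miR-139-5p, 133 in the text, it was 13.5 with TMM, 13.1 with DESeq2 size factors, 22.3 without miR-378, miR-320 and miR-423-5p, 37.1 on the authors' RPM, 6.98 against miR-191 and 4.5 after thinning to 26522 counts. For miR-574, at least 132, it was 13.4, 12.9, 22.1, 36.8, 6.92 and 3 in the same order, and 439.7 with a floor of 3 counts. For miR-128, 11.8, it was 1.19, 1.16, 1.98, 3.29, 0.619 (reversed) and 6.5, and 8.44 with totals without the most abundant miRNA. The thinned values are bounds, since plasma then had under 10 counts of each in the median draw. The 87 miRNAs at least 2-fold higher in serum than in plasma became 34 with TMM, 34 with DESeq2 size factors, 46 without those 3 miRNAs, 21 against miR-191, 32 after thinning and 146 with no minimum count. Serum held 78.4% of the miRNAs that differed by 2-fold, against 39.5% with TMM and with DESeq2 size factors, 54.1% without those 3 miRNAs, 65.2% on the authors' RPM and 23.6% against miR-191. The cause of these shifts was not tested. The 9 ratios of serum to semen, urine and bile passed 2-fold in 9 of 9, in 8 on the authors' RPM (miR-128 against semen at 1.20) and in 8 against miR-191 (miR-574 against urine at 1.63); 41 of their 72 alternative values moved beyond the counting interval and none reversed. Added after the data were seen, ratios that reversed were those of miR-128 in semen over plasma (2.07), at 0.366 with TMM, 0.378 with DESeq2 size factors, 0.334 without miR-378, miR-320 and miR-423-5p and 0.141 against miR-191, and in bile over plasma (1.39), at 0.268, 0.210, 0.224 and 0.206 in that order. miR-128 in semen over bile (1.49) came to 0.684 against miR-191. miR-574 in bile over semen (1.17) came to 0.966 with DESeq2 size factors, 0.813 with totals without the most abundant miRNA and 0.877 on the authors' RPM. In serum over plasma, the leukocyte sum came to 0.601 with TMM, 0.583 with DESeq2 size factors, 0.995 without those 3 miRNAs and 0.312 against miR-191, where the erythrocyte sum was 0.861 and the platelet sum 0.625. The low miRNA total limits urine, where a listed 0 allows up to 377 CPM. No paired analysis was possible because each fluid has 1 library.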
